A study of Saccharomyces cerevisiae with 6 samples.

Results

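The DNA replication machinery of budding yeast was described through 45 genes. These were chosen by name for their roles in replication and not by any measured value, though earlier results of these data were known. All 45 were found among the 5793 features of the deposited RNA-Seq table. They encode the origin recognition complex, the replicative helicase and the factors that load and start it, the 3 replicative polymerases, the sliding clamp and its loader, the single-strand binding protein RPA, and the enzymes that join lagging strand fragments.

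The RNA came from *Saccharomyces cerevisiae* strain BJ5464, which the labels describe as auxotrophic through a URA3 deletion. A single culture in rich glucose medium was grown at 28 °C and divided. The heat shock part, with 3 libraries, was then held at 37 °C for 20 min, and the optimal growth part, also with 3 libraries, received no heat. The study used the RNA to set chromatin signals beside gene expression. Each group's libraries are aliquots of its part of the culture, so they are not separate cultures.

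The measurement available for each gene was 1 mean level over all 6 libraries, the authors' log2 mean CPM (read counts scaled to the size of each library). The table holds no value per library. A spread between replicates, a depth per library and a test of heat shock against optimal growth could therefore not be given, and every level below is an average over both groups. The authors' own fold changes and p-values were not used. In bulk RNA, a gene transcribed in few cells and a gene transcribed weakly in all cells cannot be told apart. URA3 itself was listed at 137 CPM, although the labels name it as deleted.

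In yeast, the origin recognition complex sits on replication origins through most of the cell cycle. Together with Cdc6 and with Cdt1, the product of TAH11, it loads the ring-shaped Mcm2-Mcm7 helicase in G1. At the start of S phase Cdc45 and the GINS complex join the ring, the helicase starts, and the polymerases, clamp and RPA follow. Many of the genes are known to be transcribed periodically. Polymerase, clamp and RPA genes peak at the G1 to S transition under MBF, the complex of Mbp1 and Swi6 that binds the MluI cell cycle box (MCB). Several helicase loading genes peak earlier, around the end of mitosis, through the early cell cycle box (ECB), which is bound by Mcm1.

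The promoters of the 45 genes were searched for these motifs. A promoter was taken as the 250 bases before to 50 bases after the first base of the start codon, read from the R64 genome. R64 is a reference assembly, so the sequences and motif counts were not read from strain BJ5464 itself. The annotation starts every protein-coding gene of the table at its coding region, so distances below are from the start codon and not from the start of the transcript. The MCB was searched as ACGCGT, which reads the same on both strands. It was found before 18 of the 45 genes (40.0%), against 183 of the promoters of all features with coordinates (3.16%, n = 5791). At least 2 copies were found before 6 of the 45 genes (13.3%) and before 20 of all promoters (0.345%). No enrichment test was made, and a match is a stretch of letters and not a measured binding site.

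The stretches with both copies are shown for the 5 of these 6 genes with the highest levels per kb of coding length. Each runs 5′ to 3′ on the strand of its gene, and the capitals mark the MCB.
RFA2: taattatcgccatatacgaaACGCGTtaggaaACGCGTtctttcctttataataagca
RAD27: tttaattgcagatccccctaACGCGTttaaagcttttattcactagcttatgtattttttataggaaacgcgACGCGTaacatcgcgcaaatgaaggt
RFA1: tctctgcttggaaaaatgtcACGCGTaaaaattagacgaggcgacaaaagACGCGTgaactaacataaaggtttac
POL12: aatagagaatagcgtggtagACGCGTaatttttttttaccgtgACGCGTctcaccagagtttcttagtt
CDC45: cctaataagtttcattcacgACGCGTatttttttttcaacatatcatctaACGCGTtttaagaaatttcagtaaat

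The RFA2 stretch lies at chrXIV:48147-48204 on the plus strand, and its copies begin 120 and 108 bases before the start codon. The RAD27 stretch lies at chrXI:225978-226075 on the minus strand, with copies at 180 and 128 bases. The RFA1 stretch lies at chrI:158729-158804 on the minus strand, with copies at 165 and 135 bases. The copies in these promoters were 12, 52 and 30 bases apart. The POL12 stretch lies at chrII:153784-153852 on the minus strand, with copies at 222 and 199 bases. The CDC45 stretch lies at chrXII:346066-346141 on the minus strand, with copies at 180 and 150 bases, again 30 bases apart as before RFA1. POL1, the sixth gene, had copies at 208 and 173 bases.

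The 12 genes with a single copy were CDC6, PSF3, SLD2, PRI2, POL2, DPB2, POL3, POL31, POL32, POL30, RFC4 and CDC9. By role, the MCB was found before all 3 genes of polymerase delta, both genes of flap removal and ligation, 3 of 4 genes of polymerase alpha-primase, 2 of 3 RPA genes and 2 of 4 genes of polymerase epsilon. It was found before 3 of 8 helicase activation genes and 2 of 6 clamp and clamp loader genes. Only 1 of 8 genes of origin recognition and loading (CDC6) and 0 of 7 MCM genes held it in this window. With 500 bases before the start codon, ORC6 and MCM5 were added, which made 2 of 8 and 1 of 7. Single-copy sites are shown for the catalytic subunits of 2 polymerases, the clamp and the ligase, with 10 bases on either side.
POL2: ggtaaccagaACGCGTaagtttcttg
POL3: ttttcgtattACGCGTaactttttat
POL30: aaaacgcgaaACGCGTaacttttttt
CDC9: taacgcgaaaACGCGTgaaagtgaaa

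These sites lie at chrXIV:148087-148112 on the plus strand (POL2), chrIV:276696-276721 on the plus strand (POL3), chrII:425946-425971 on the minus strand (POL30) and chrIV:167364-167389 on the minus strand (CDC9). Before POL30 and CDC9, the lower case letters to the left of the MCB belong to a second motif. This is the SCB, which is bound by SBF, the complex of Swi4 and Swi6. It was searched only in the form CGCGAAA, on both strands, and the counts below leave out any other form. The SCB was found before 7 of the 45 genes (15.6%), against 3.61% of all promoters. Of these 7 genes, POL30, CDC9, DPB2 and POL32 also held an MCB, while PSF1, DPB3 and MCM5 did not. Before POL30 the SCB ends in the A with which the MCB begins, and before CDC9 the SCB ends directly before the MCB.

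The 24 MCB sites began between 85 and 222 bases before the start codon, with a median of 146 bases. Of these sites, 20 (83.3%) began 100 to 200 bases before it, a band that was not part of the plan. In the windows of other features, 106 of 179 sites (59.2%) did. Of those 179 sites, only 169 lay in the 250 bases before the start codon. A site that also fell in a neighbour's window can count in both groups, and the difference was not tested. None of the 24 sites lay within the neighbouring gene upstream. An A before or a T after the motif was found at 12 of the 24 sites, and at 105 of the 179 sites of other features (58.7%). In 6 of the 13 MCB promoters with a divergent neighbour, the same region put an MCB in the neighbour's window as well, so these sites cannot be assigned to the replication gene alone. The neighbours were CSA1 (DPB2), QRI1 (POL3), SEN34 (RFA1), PEX11 (PSF3), TRM10 (RFC4) and EMW1 (RFA2).

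The ECB was searched by its palindromic core, TTNCCNNNNNNGGNAA. This core was found before 5 of the 45 genes (11.1%), against 54 of all promoters (0.932%). The 5 genes were CDC6, MCM3, MCM5, MCM6 and MCM7, all of them genes of helicase loading or of the helicase. CDC6 and MCM7 held 2 copies each, and no other promoter of the table held more than 1 copy in this window. With 500 bases before the start codon, the core was also found before the polymerase genes DPB4 and POL3 (7 of the 45 genes, 15.6%, against 1.90% of all promoters), and 9 promoters of the table held more than 1 copy. The 7 sites of the shorter window are shown because, of these 5 genes, only CDC6 also held an MCB there. The capitals mark the fixed letters of the core, and 5 bases are given on either side.
CDC6, distal: cggagTTtCCagatcaGGaAAttacc
CDC6, proximal: ggaaaTTaCCcacttaGGaAAttgag
MCM7, distal: ctaatTTaCCcagaaaGGaAAtttcc
MCM7, proximal: ggaaaTTtCCttataaGGaAAataaa
MCM3: ttactTTtCCtaaatgGGtAAaaact
MCM5: gcgtgTTtCCcttttaGGaAAagtga
MCM6: ttaaaTTtCCtttttaGGaAAagcgc

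Before CDC6 (chrX:69140-69165 and chrX:69156-69181, plus strand) the copies began 193 and 177 bases before the start codon. Before MCM7 (chrII:625538-625563 and chrII:625554-625579, plus strand) they began at 229 and 213 bases. Both pairs have a step of 16 bases, which is the length of the core, so the copies lie end to end. The remaining sites were single. They lie at chrV:86747-86772 (MCM3, plus strand, 185 bases before the start codon), chrXII:691396-691421 (MCM5, plus strand, 154 bases) and chrVII:121065-121090 (MCM6, minus strand, 178 bases).

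CDC6 was the 1 gene with both an MCB and an ECB core, and MCM5 the 1 gene with both an SCB and an ECB core. In total 24 of the 45 promoters held at least 1 of the 3 motifs and 21 held none. The same count over all promoters was not made, so these numbers have no background beside them. The 21 included all 6 ORC genes, MCM2, MCM4, MCM10 and 4 of the 5 genes of the clamp loader. An absence says only that these letters were not in this window.

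**Figure D1:**
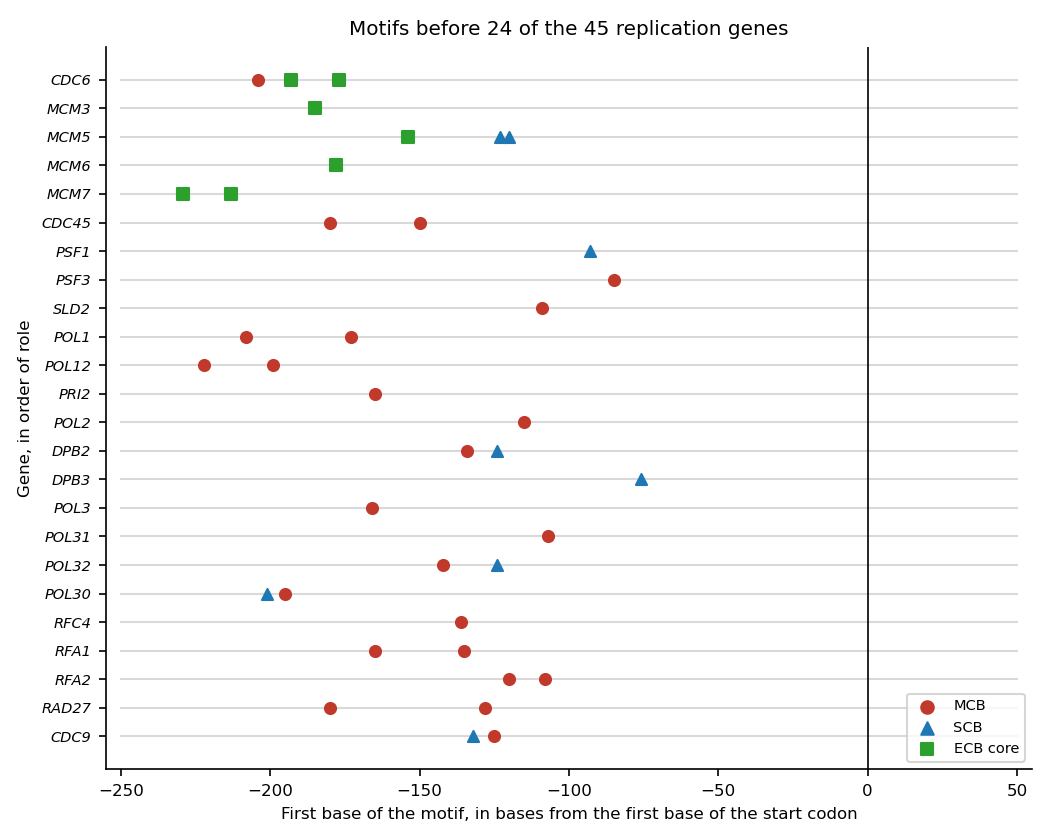
Positions of the MCB (circles), SCB (triangles) and ECB core (squares) before the 24 replication genes that hold at least 1 of them. The horizontal axis gives the first base of each motif in bases from the first base of the start codon, and each grey line is 1 searched window. ECB cores stand before CDC6 and 4 MCM genes, and MCB sites stand before CDC6 and 17 genes of the later steps, mostly 100 to 200 bases from the start codon.

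The same search in other gene lists gave a like share for replication genes outside the 45. Of 19 accessory genes, which include the kinase genes CDC7 and DBF4, the fork protection genes MRC1, TOF1 and CSM3, and the topoisomerase genes TOP1 and TOP2, 10 (52.6%) held an MCB. MRC1 and TOF1 held 2 copies each. None of these 19 held an ECB core. Of 5 genes for translesion and repair polymerases (REV1, REV3, REV7, RAD30 and POL4), 0 held any of the 3 motifs. Of 4 genes for ribonucleotide reductase, which supplies deoxynucleotides, 1 (RNR3) held an MCB in this window. RNR1 held 4 copies within 500 bases of the start codon, all outside the shorter window. These lists are short, and the differences between them were not tested.

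**Figure D2:**
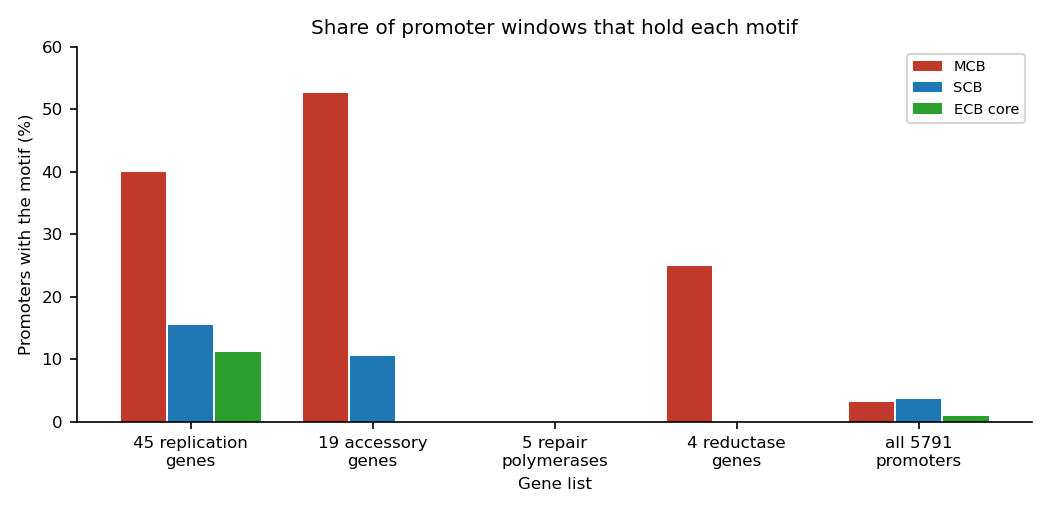
Share of promoter windows (vertical axis, percent) that hold an MCB, an SCB or an ECB core in the 45 replication genes, in 3 other gene lists and in all promoters of the table (horizontal axis). The MCB share is 40.0% in the 45 genes and 52.6% in the accessory genes, against 3.16% in all promoters.

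Most of the 45 genes had levels in the middle of the range of the table, more of them below its median than above. Because longer transcripts give more reads, levels of different genes were compared as CPM per kb of coding length. On that scale the 45 genes had a median of 44.5 CPM per kb, against 58.3 CPM per kb over all features with a length. Of the 45, 13 (28.9%) lay above the median of all features. The genes also lay closer together than all features did. The standard deviation over genes was 0.81 on the log2 scale of CPM per kb for the 45 genes, against 1.93 for all features. This is not particular to the 45, since it was 0.78 for the 19 accessory genes and 0.92 for the 5 repair polymerases. Of the 45 genes, 33 lay between the lower quartile (29.7 CPM per kb) and the upper quartile (127 CPM per kb) of all features. Of the others, 9 lay below the lower quartile and 3 above the upper quartile. Together the 45 genes made up 0.348% of the summed CPM of the table.

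From the highest gene to the lowest the level differed 13.0-fold per kb. RFA3 (YJL173C, chrX:96161-96529, minus strand) stood highest at 187 CPM per kb, and MCM10 (YIL150C, chrIX:61013-62728, minus strand) lowest at 14.3 CPM per kb. In the order of the 45 levels, 36 of the 44 steps between neighbours were under 1.1-fold, and the largest was 1.30-fold. No library spread is known here, so none of these neighbours can be said to differ.

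**Figure D3:**
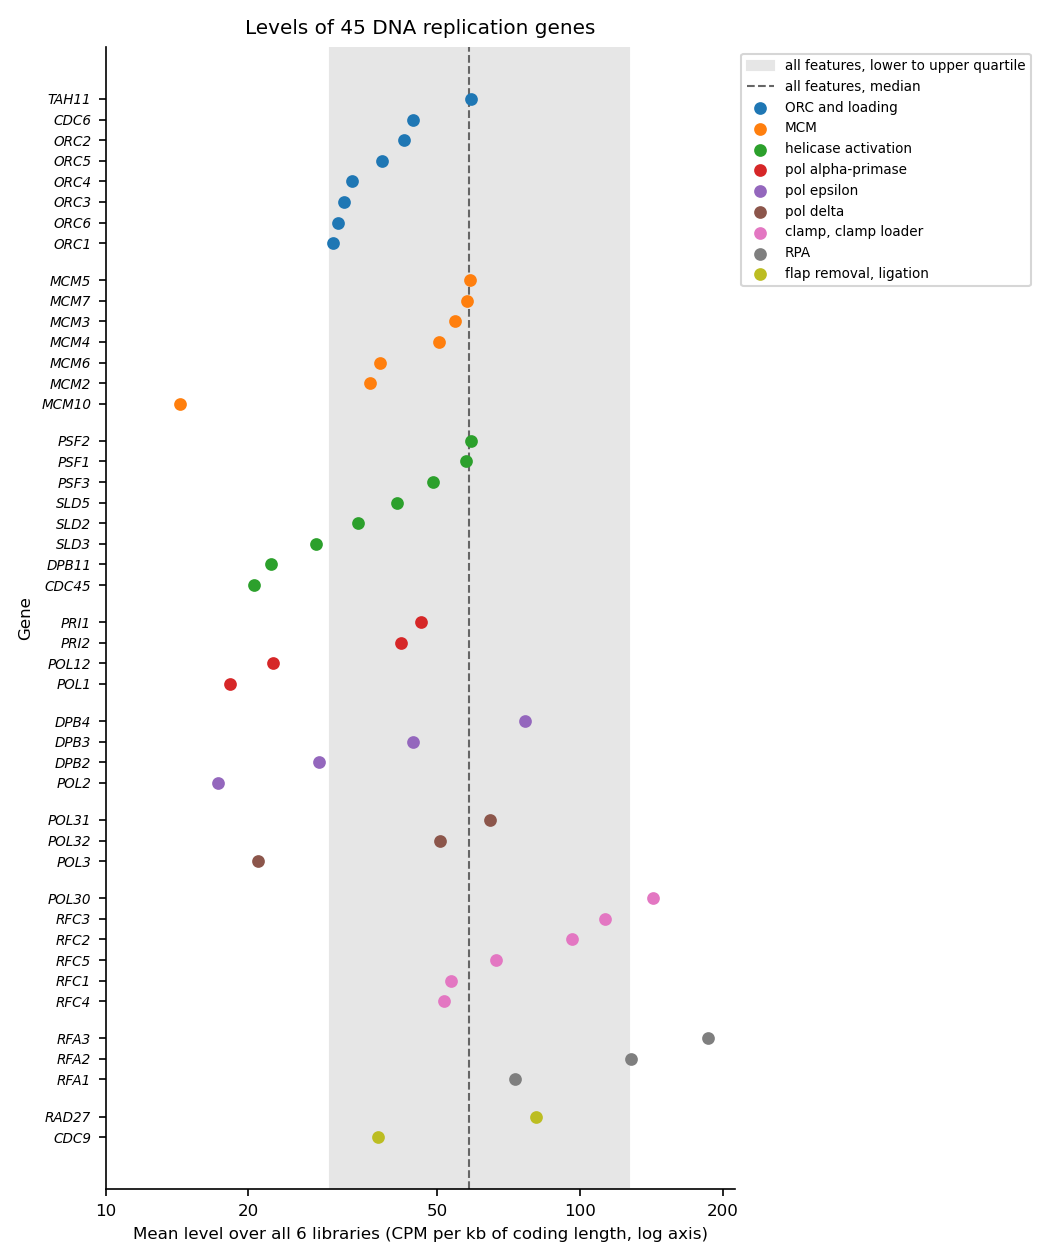
Mean level over all 6 libraries (horizontal axis, CPM per kb of coding length, logarithmic) of each of the 45 replication genes (vertical axis), grouped and coloured by role, with 1 point per gene. The grey band spans the lower to the upper quartile of all features (29.7 to 127 CPM per kb) and the dashed line is their median (58.3 CPM per kb). RFA3, POL30 and RFA2 stand at the right, and MCM10 and the large polymerase subunits at the left.

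The origin recognition complex had the narrowest range of the 8 complexes per kb, though not without the length correction (2.05-fold, against 1.32-fold in GINS). ORC1, the largest subunit and an ATPase, had 30.2 CPM per kb, and ORC2 had 42.5 CPM per kb. These were the lowest and the highest of its 6 genes, 1.41-fold apart. Between them lay ORC6 at 30.9, ORC3 at 31.8, ORC4 at 33.0 and ORC5 at 38.3 CPM per kb, so that all 6 subunits lay below the median of all features. Of the loading factors, CDC6, an ATPase related to Orc1, had 44.5 CPM per kb, close to ORC2, and TAH11, whose product brings the helicase to the origin, had 59.0 CPM per kb. Without length correction TAH11 (107 CPM) also stood above all 6 ORC genes, while CDC6 (68.6 CPM) lay below ORC1 (82.9 CPM) and ORC2 (79.3 CPM).

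The 6 genes of the Mcm2-Mcm7 ring, whose products are ATPases present once each in the helicase, spanned a 1.63-fold range. MCM5 had 58.7, MCM7 had 57.9 and MCM3 had 54.4 CPM per kb. MCM4 had 50.5, MCM6 had 37.9 and MCM2 had 36.0 CPM per kb. The 3 highest genes of the ring were all among those with an ECB core, but MCM6, which also has one, stood next to MCM2, which has none. Without the length correction, 5 of the 6 ring genes (MCM3, MCM7, MCM4, MCM5 and MCM6) were among the 7 most abundant of the 45, with MCM3 first at 159 CPM. MCM10, which is not part of the ring and is needed to start it, was lowest of the 45 on both scales, at 24.6 CPM and 14.3 CPM per kb.

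Among the genes that turn the loaded ring into an active helicase, the 4 GINS genes were close to each other, with a 1.43-fold range. PSF2 had 59.0, PSF1 had 57.4, PSF3 had 49.1 and SLD5 had 41.2 CPM per kb. The initiation factor genes SLD2, SLD3 and DPB11 stood lower per kb. SLD2 had 34.0, SLD3 had 27.8 and DPB11 had 22.3 CPM per kb. CDC45, which travels with the ring and GINS at the fork, had 20.5 CPM per kb. Without length correction this order turned round. SLD3 (55.9 CPM), DPB11 (51.2 CPM), SLD2 (46.4 CPM) and CDC45 (40.1 CPM) all lay above the 4 GINS genes, which had 28.7 to 37.9 CPM.

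In each of the 3 polymerases the catalytic subunit was the longest gene and the lowest per kb. POL1, the catalytic subunit of polymerase alpha, had 18.3 CPM per kb and its partner POL12 had 22.5. The primase genes PRI2 and PRI1 had 41.9 and 46.1 CPM per kb, a 2.52-fold range over the 4 genes. POL2 (YNL262W, chrXIV:148212-154880, plus strand), the catalytic subunit of the leading strand polymerase epsilon, had 17.3 CPM per kb. Its partners DPB2, DPB3 and DPB4 had 28.2, 44.5 and 76.7 CPM per kb, and this 4.44-fold range was the widest of the 8 complexes. ORC5 is the next gene on the same strand, 219 bases beyond POL2. POL3, the catalytic subunit of the lagging strand polymerase delta, had 20.9 CPM per kb, while POL32 had 50.6 and POL31 had 64.6 CPM per kb.

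This order depends on the length correction. POL2 has 6669 coding bases and POL1 has 4407, and without the correction they had the highest level of their complexes, at 115 and 80.6 CPM. POL3, with 3294 coding bases, had 68.9 CPM and lay between POL31 (94.5 CPM) and POL32 (53.3 CPM). Across the 45 genes the log2 level per kb fell with log2 coding length (Pearson's r = -0.64, Spearman's rho = -0.57, n = 45 genes), and across all features less so (r = -0.27, rho = -0.30). Without the correction, the relation ran the other way, with r = 0.48 over the 45 genes and 0.31 over all features. Length enters both axes of the first relation, and genes are not independent replicates. If reads from untranslated ends were counted, they would add to the level but not to the coding length. How reads were counted is not known, and the size of any such effect was not tested.

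RFA3, POL30 and RFA2 were the 3 highest of the 45 genes per kb, but not without length correction, where MCM3, MCM7 and MCM4 were. POL30 (YBR088C, chrII:424990-425766, minus strand) encodes PCNA, the ring of 3 like subunits that holds polymerases on DNA, and had 143 CPM per kb, above 77.6% of all features. The clamp loader genes followed, with RFC3 at 113, RFC2 at 96.1 and RFC5 at 66.7 CPM per kb. RFC1, the large subunit, had 53.5 and RFC4 had 51.7 CPM per kb, which gave a 2.18-fold range within the loader. POL30 and RFC5 are adjacent genes on chromosome II, on opposite strands with their ends 160 bases apart.

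RPA covers single-stranded DNA at the fork. RFA3, its smallest subunit, had 187, RFA2 had 128 and RFA1 had 72.8 CPM per kb, and all 3 lay above the median of all features. The order of the 3 was the reverse without length correction, with RFA1 at 136, RFA2 at 105 and RFA3 at 68.8 CPM. RFA2 is the 1 gene of the 45 with 2 exons. Of the enzymes that finish lagging strand fragments, the flap nuclease gene RAD27 had 80.7 CPM per kb and the ligase gene CDC9 had 37.6 CPM per kb.

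**Figure D4:**
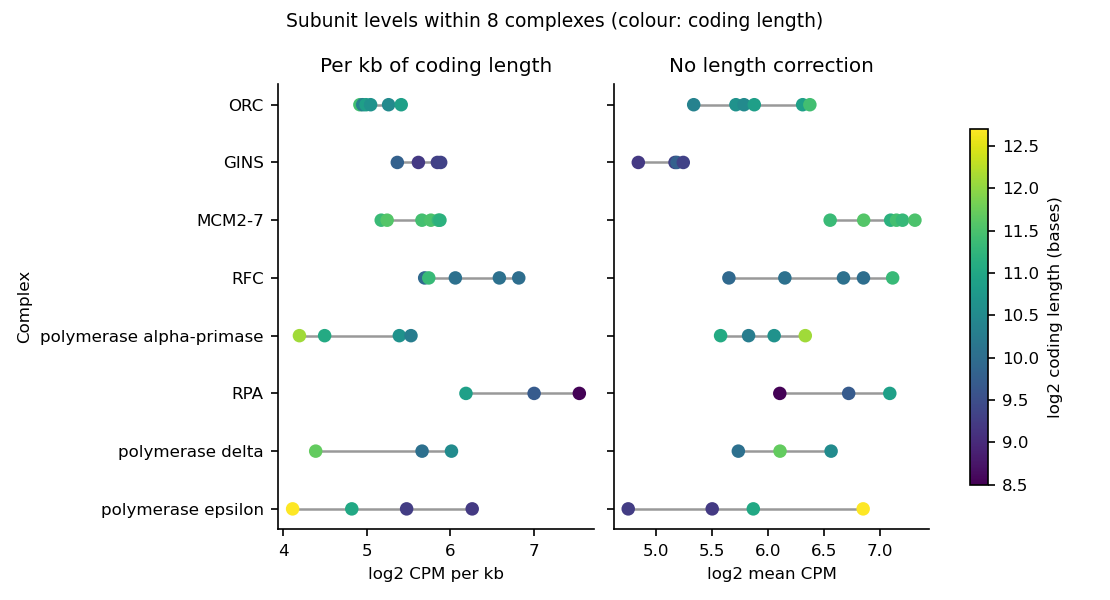
Levels of the subunits of 8 complexes (vertical axis), as log2 CPM per kb of coding length on the left and as log2 mean CPM with no length correction on the right (horizontal axes). Each point is 1 gene, coloured by log2 coding length, and the line spans the lowest to the highest subunit. Ranges per kb run between 1.41-fold in ORC and 4.44-fold in polymerase epsilon, and the long catalytic genes are the lowest points per kb in their complexes.

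Genes with and without these motifs overlapped in level. The 18 genes with an MCB had a median of 43.2 CPM per kb and the 27 without had 46.1 CPM per kb. The genes with an MCB included 2 of the 3 highest (POL30 and RFA2) and 2 of the 3 lowest (POL2 and POL1). The 5 genes with an ECB core had a median of 54.4 CPM per kb, against 43.5 CPM per kb for the other 40. These differences are descriptions over genes and were not tested.

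Beside the 45 genes, the accessory replication genes had a median of 31.2 CPM per kb and the repair polymerases one of 21.2 CPM per kb. The repair polymerases ran between 8.68 CPM per kb for REV3, the catalytic subunit of polymerase zeta, and 46.9 CPM per kb for its partner REV7. The ribonucleotide reductase genes stood apart among themselves. RNR4, RNR2 and RNR1 had 563, 333 and 130 CPM per kb, while RNR3, an alternative large subunit known to be induced by DNA damage, had 6.0 CPM per kb. The genes of the factors that bind the MCB and the SCB lay within the range of the 45, with SWI6 at 47.3, MBP1 at 43.5 and SWI4 at 26.7 CPM per kb.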

How the data were processed

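Polyadenylated RNA from 6 libraries (3 heat shock, 3 optimal growth) was sequenced from stranded preparations. Per the paper's methods, the authors aligned reads with kalign to the repeat-masked R64/sacCer3 genome and ran the Trinity edgeR pipeline. The submitters' processing notes also name Picard, without a version. How reads were counted (tool, strand, several matches), which low counts were filtered and which prior count was added is not given in the sources used here, and these choices act most on low and overlapping genes. None of the 45 genes overlapped another annotated gene or shared a 50-base word with another place in the genome. The annotated ends of the 45 genes are their coding ends, so an overlap of untranslated ends could not be seen.

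The authors deposited 1 table, with a log2 mean CPM per feature over all libraries, which was used. Its other value columns hold the authors' comparison of heat shock with optimal growth (log2 fold change, p-value and adjusted p-value). As the authors' own findings they were not used, and a test from counts could not be made. The table holds 0 columns per sample, so depth per library is unknown.

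Of 5793 features, 5715 matched a RefSeq R64 locus tag, 76 a symbol and 2 neither. CPM was taken as the power of 2 of the deposited log2 value and divided by coding length in kb. Motifs were searched in windows of the R64 genome, the build the paper names, and coordinates are 1-based. The code was tested on simulated sequences and levels. All 45 genes are named. In each group the highest and the lowest were pointed out, and promoter stretches followed a rule (at least 2 MCB copies, higher level first, at most 5). The single-copy MCB sites and the ECB sites were chosen after the matches were seen. The band of 100 to 200 bases was not part of the plan. The genes and lists were chosen with earlier results of these data known. A planned display of proteins was not made. Alternatives were other backgrounds, filters, lengths, summaries and windows. Calculations ran in pandas 2.3.3, numpy 2.4.6 and scipy 1.17.1 under Python 3.11.15, with plots from matplotlib 3.10.9.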

Additional observations from a re-analysis of the deposited data

How the results depend on the processing

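The median of the 45 genes lay below that of all features (a difference of -0.39 on the log2 scale of CPM per kb, and of -0.16 without length correction), and it stayed below under every alternative tried. A minimum log2 mean CPM of 5, which removed 3 of the 45 genes and many low features of the background, moved these differences to -0.76 and -0.52. With means in place of medians, the difference without length correction was -0.041. Above the median of all features lay 13 of the 45 genes; 7 did at a minimum of 5, and 20 did without length correction. The median range within complexes was 1.23 on the log2 scale per kb and 0.90 without length correction. Counts among the 45 genes with each motif stayed within 1.5 times of the values reported in all 9 alternatives. A window of 500 bases before the start, added after the data were seen, gave 20 genes with an MCB, 8 with an SCB and 7 with an ECB core. It moved the counts over all promoters more, to 317, 343 and 110, against 183, 209 and 54 in the shorter window.

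No paired analysis was possible because a single mean over the libraries is all that is listed for a gene. The planned edgeR test of heat shock against optimal growth, its count filters and the leaving out of each replicate were therefore not run. Whether 1 library decides any level is unknown.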
